A study of Bos taurus with 32 samples.

Results

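The genes followed here are ones that liver uses to carry or convert hormones and vitamins, measured across calving in dairy cows. They are SERPINA6 (gene ID 513746), SERPINA7 (282518), TTR (280948), RBP4 (281444), ALB (280717) and DIO1 (782446). Every probe set that the array annotation gives to one of these 6 of 9155 genes was taken, whatever its values. This gave 15 of the 24016 probe sets tested: 1 each for SERPINA6, SERPINA7, TTR and RBP4, 2 for DIO1 and 9 for ALB. No filter on level was applied, so none was lost. The DIO1 probe sets are called the brighter and the dimmer, and those of ALB are numbered from the first to the ninth, by mean signal over all arrays and in the order in which the plots of differences list their identifiers.

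Hepatocytes secrete most of the proteins that keep small lipophilic hormones and vitamins in solution in blood. SERPINA6 encodes corticosteroid-binding globulin, the high-affinity plasma carrier of cortisol, and SERPINA7 encodes thyroxine-binding globulin. Both are serpins that bind hormone in place of inhibiting a protease. TTR (transthyretin) carries thyroxine and also holds RBP4, the retinol-binding protein, in plasma, while ALB (albumin) binds fatty acids, calcium and many hormones with low affinity. DIO1 encodes the type 1 iodothyronine deiodinase, a selenoenzyme of liver that converts thyroxine to the active triiodothyronine and also breaks down inactive iodothyronines. Several of the carriers, TTR and ALB among them, are textbook negative acute phase proteins.

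The arrays came from liver biopsies of Ayrshire cows given either the high-energy diet (HIGH) or the controlled-energy diet (CON) over the last 6 weeks before predicted calving. Biopsies were dated -8 d, relative to predicted calving, and 1 d and 9 d, relative to actual calving. The 32 arrays covered 5 HIGH and 5 CON cows at -8 d, 6 HIGH and 4 CON cows at 1 d, and 6 HIGH and 6 CON cows at 9 d. They came from 12 cows, 6 per diet, of which 5 HIGH and 3 CON cows had arrays on all 3 days. All values are log2 RMA values, so a difference of 1 is a doubling of signal, and levels are compared within a probe set only. Differences were tested with limma on all 24016 probe sets, and one passed where its Benjamini-Hochberg adjusted p was under 0.05.

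The biopsies carried liver transcripts at high level: the mean log2 value over 14 hepatocyte markers lay between 13.24 and 13.32 at -8 d, between 13.07 and 13.22 at 1 d, and between 13.05 and 13.30 at 9 d. Of these 14 markers, 3 were higher and 8 lower at 1 d than at -8 d by the test used below. At 9 d against -8 d 6 of the 14 passed. Neutrophil markers moved with the day as well. Over 6 of them the mean ran between 5.66 and 6.35 at -8 d, 6.63 and 8.09 at 1 d, and 6.01 and 7.14 at 9 d, with 4 of 6 higher at 1 d than at -8 d. The neutrophil markers CAMP and MMP9 did not pass there (0.04 each). Of 9 T and NK cell markers 5 passed at 1 d against -8 d, all lower. Of all genes, each read by its brightest probe set, 28.8% passed in that comparison and 12.9% at 9 d against -8 d. On the elongation factor controls the 3′ signal minus the 5′ signal, a measure of RNA and labelling quality, averaged -0.68 ± 0.12 at -8 d, -1.07 ± 0.15 at 1 d and -0.81 ± 0.13 at 9 d (SD, n = 10, 10 and 12). The part of the cell markers in the results below was not tested, and in bulk tissue fewer cells of a type and less RNA per cell cannot be told apart. The control difference was also used as a covariate, and where it ends a call or moves a value by over 1.5 times, that stands beside the result. It ran from -1.43 to -0.85 at 1 d and from -0.84 to -0.47 at -8 d, with no overlap. A call lost between these days therefore cannot tell day and RNA quality apart. The difference moved most between -8 d and 1 d in CON cows, at -1.18 ± 0.18 at 1 d (SD, n = 4) and -0.72 ± 0.13 at -8 d (SD, n = 5). With the covariate 3 of the 14 hepatocyte markers passed at 1 d against -8 d, and 5 of them at 9 d against -8 d. Of the 6 neutrophil markers 3, and of the 9 T and NK cell markers 0, passed at 1 d with it. The shares of all genes with it were 6.85% and 7.53% in these 2 comparisons.

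SERPINA6 moved most among the 15 probe sets. At 1 d its HIGH values ran from 7.05 to 8.08 (median 7.70, n = 6) and its CON values were 6.82, 7.61, 7.28 and 6.21. At -8 d the HIGH values were 10.01, 9.33, 9.41, 9.51 and 9.82 and the CON values were 8.35, 10.05, 9.83, 9.38 and 9.66. Every array at 1 d lay below every array at -8 d. The log2 difference, averaged over the diets, was -2.21 (SE 0.27, adjusted p = 6.59e-07), which is 4.62-fold lower at 1 d. All 8 cows with both days had less SERPINA6 at 1 d, by -2.55 in cow 483 to -1.53 in cow 445. With the control difference as a covariate the value was -1.58 (adjusted p = 0.0444).

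By 9 d SERPINA6 had come part of the way back, and unevenly. The HIGH values were 7.16, 7.70, 8.16, 9.21, 9.74 and 10.23, and the CON values ran from 7.87 to 9.30 with a median of 8.52 (n = 6). The range at 9 d thus overlapped those of both other days. SERPINA6 was 2.40-fold higher at 9 d than at 1 d (log2 difference 1.27, SE 0.26, adjusted p = 0.00103), and higher in 10 of 10 cows, by 0.08 in cow 512 to 2.61 in cow 432. It was still 1.92-fold lower at 9 d than at -8 d (log2 difference -0.94, SE 0.26, adjusted p = 0.0169), in 8 of 10 cows. These 2 calls were lost with the control difference as a covariate (0.84, adjusted p = 0.181, and -0.75, adjusted p = 0.119). Nor did the difference between 9 d and -8 d pass among the 8 cows with all 3 days (-1.06, adjusted p = 0.0549).

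**Figure D1:**
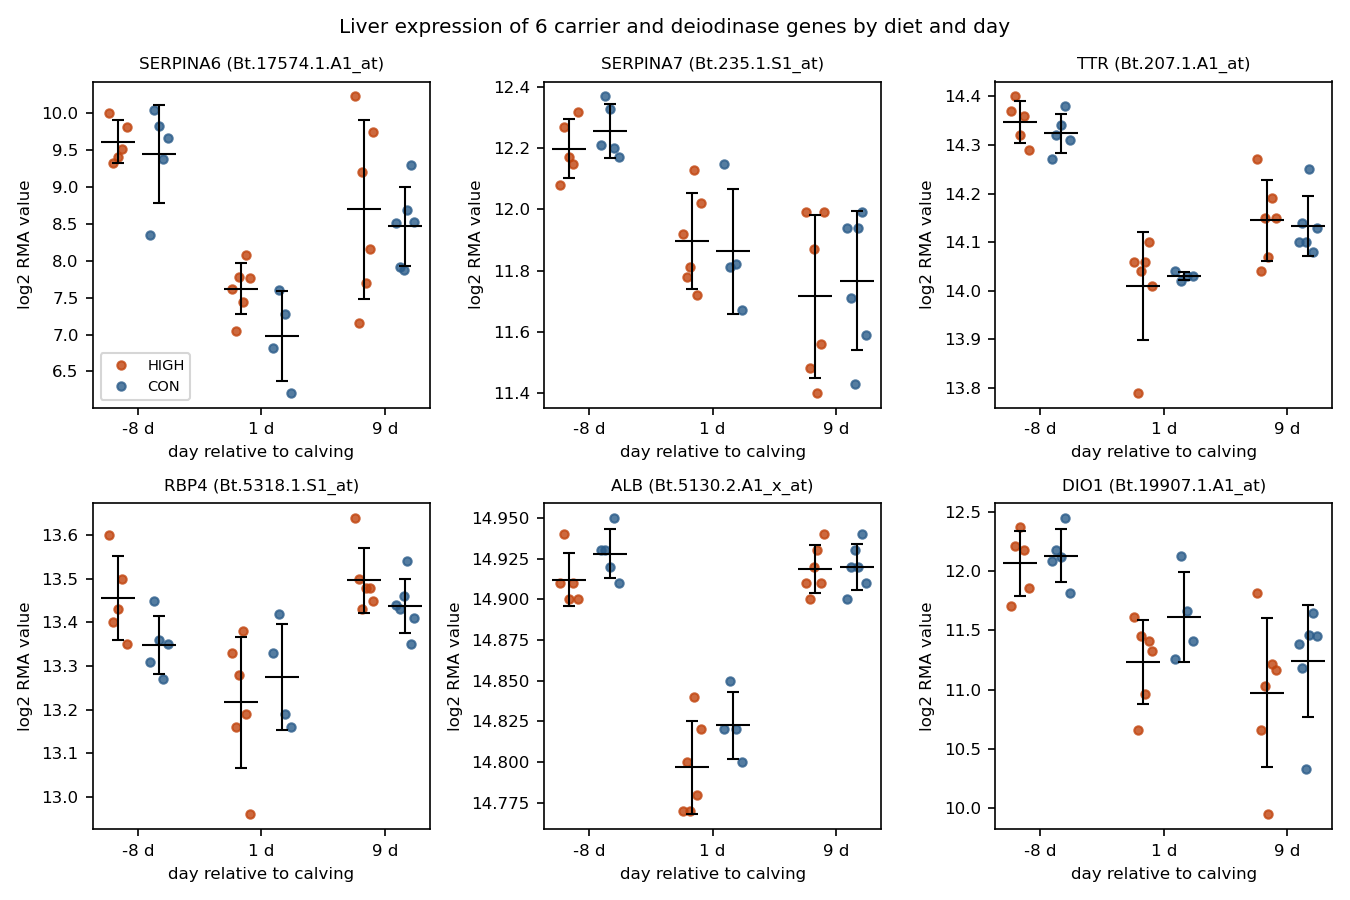
Log2 RMA values (y axis) by day relative to calving (x axis) for 1 probe set of each gene, with HIGH left of CON. Points are arrays, the long bars group means and the error bars SD (n = 4 to 6); the y axes differ between panels. SERPINA6 and TTR at 1 d lie below all their values at -8 d, while DIO1 and SERPINA7 are lowest on average at 9 d.

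Among the thyroid hormone genes, SERPINA7 was lower after calving on both days. At 1 d the HIGH values ran from 11.72 to 12.13 (median 11.87) and the CON values were 12.15, 11.81, 11.82 and 11.67. At -8 d the HIGH values were 12.08, 12.27, 12.17, 12.15 and 12.32, and the CON values 12.21, 12.37, 12.33, 12.20 and 12.17. The 1 d and -8 d ranges overlapped through cows 462 and 445, yet all 8 cows with both days were lower at 1 d. The log2 difference was -0.34 (SE 0.08, adjusted p = 0.00163). It was -0.13 with the control difference as a covariate (adjusted p = 0.658).

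At 9 d the HIGH values of SERPINA7 ran from 11.40 to 11.99 (median 11.72) and the CON values from 11.43 to 11.99 (median 11.83, n = 6 each), all below the lowest value at -8 d. The difference from -8 d was -0.48 (SE 0.07, adjusted p = 5.98e-05), or 1.40-fold lower, with a fall in 10 of 10 cows. SERPINA7 was at -0.14 at 9 d relative to 1 d (SE 0.07, adjusted p = 0.253), which did not pass the test.

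DIO1 fell by a larger factor, and its 2 probe sets gave like values. For the brighter the HIGH values at 1 d ran from 10.66 to 11.61 (median 11.37) and the CON values were 11.26, 12.13, 11.66 and 11.41. At -8 d the HIGH values were 11.71, 12.21, 12.37, 12.18 and 11.86, and the CON values 12.09, 12.18, 12.12, 12.45 and 11.82. One CON cow, 477, kept a value of 12.13 at 1 d, inside the range of -8 d. The difference was -0.67 (SE 0.17, adjusted p = 0.00424), lower in 8 of 8 cows, and -0.66 for the dimmer (SE 0.18, adjusted p = 0.00924), lower in 7 of 8 cows. Both calls were lost with the control difference as a covariate (-0.47, adjusted p = 0.414, and -0.64, adjusted p = 0.288).

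The lower DIO1 level was also seen at 9 d, when the cows spread widely. The brighter probe set ran from 9.95 to 11.82 in HIGH cows (median 11.10) and from 10.33 to 11.65 in CON cows (median 11.42, n = 6 each). The highest of these, in cow 432, was the only value at 9 d inside the range of -8 d. Relative to -8 d the difference was -0.99 (SE 0.16, adjusted p = 9.76e-05), which is 1.99-fold lower, in 9 of 10 cows. The dimmer probe set gave -1.09 (SE 0.17, adjusted p = 8.13e-05), or 2.13-fold lower, in 10 of 10 cows. With the control difference as a covariate these were -0.93 and -1.08 (adjusted p = 0.00145 and 0.000853). Between 9 d and 1 d the differences were -0.33 (adjusted p = 0.199) and -0.43 (adjusted p = 0.10) and did not pass.

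Across the 32 arrays the 2 DIO1 probe sets correlated with Pearson r = 0.98 and Spearman rho = 0.95, and with r = 0.95 once the 6 group means had been taken out. Several arrays share a cow, so these are descriptions.

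TTR, which serves both thyroxine and the retinol-binding protein, fell by a small step. At 1 d the HIGH values ran from 13.79 to 14.10 (median 14.05) and the CON values were 14.04, 14.02, 14.03 and 14.03. At -8 d the HIGH values were 14.37, 14.40, 14.32, 14.36 and 14.29, and the CON values 14.27, 14.32, 14.34, 14.38 and 14.31. All arrays at 1 d were below all arrays at -8 d. The log2 difference was -0.32 (SE 0.03, adjusted p = 5.56e-08), a signal 1.25-fold lower, seen in 8 of 8 cows. The change within a cow ran from -0.61 in cow 439 to -0.23 in cow 445, with a median of -0.30. With the control difference as a covariate it was -0.31 (adjusted p = 0.00227).

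At 9 d TTR lay between the other days, from 14.04 to 14.27 in HIGH cows (median 14.15) and from 14.08 to 14.25 in CON cows (median 14.12, n = 6 each). It was higher than at 1 d by 0.12 (SE 0.03, adjusted p = 0.0107) in 10 of 10 cows. It was lower than at -8 d by -0.20 (SE 0.03, adjusted p = 8.17e-05), also in 10 of 10 cows. The rise after 1 d did not pass with the control difference as a covariate (0.11, adjusted p = 0.158) or among the 8 cows with all 3 days (0.11, adjusted p = 0.0927).

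RBP4, the partner of TTR in retinol transport, dipped at 1 d and returned. Its HIGH values at 1 d ran from 12.96 to 13.38 (median 13.24) and its CON values were 13.33, 13.42, 13.19 and 13.16. At -8 d they were 13.60, 13.40, 13.43, 13.50 and 13.35 in HIGH cows and 13.31, 13.45, 13.36, 13.27 and 13.35 in CON cows. The ranges overlapped. The difference was -0.16 (SE 0.04, adjusted p = 0.0072), with 7 of 8 cows lower at 1 d and cow 445 higher. That call was lost with the control difference as a covariate (-0.15, adjusted p = 0.282) and among the 8 cows with all 3 days (-0.15, adjusted p = 0.0592).

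At 9 d RBP4 ran from 13.43 to 13.64 in HIGH cows (median 13.48) and from 13.35 to 13.54 in CON cows (median 13.44, n = 6 each). The rise over 1 d was 0.22 (SE 0.04, adjusted p = 0.000255), in 10 of 10 cows, and also passed with the control difference as a covariate (0.22, adjusted p = 0.0213). Against -8 d the difference was 0.07 (95% interval -0.02 to 0.15, adjusted p = 0.353). RBP4 and TTR thus differed in their calls at 9 d against -8 d, a contrast between 2 genes that was not itself tested.

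**Figure D2:**
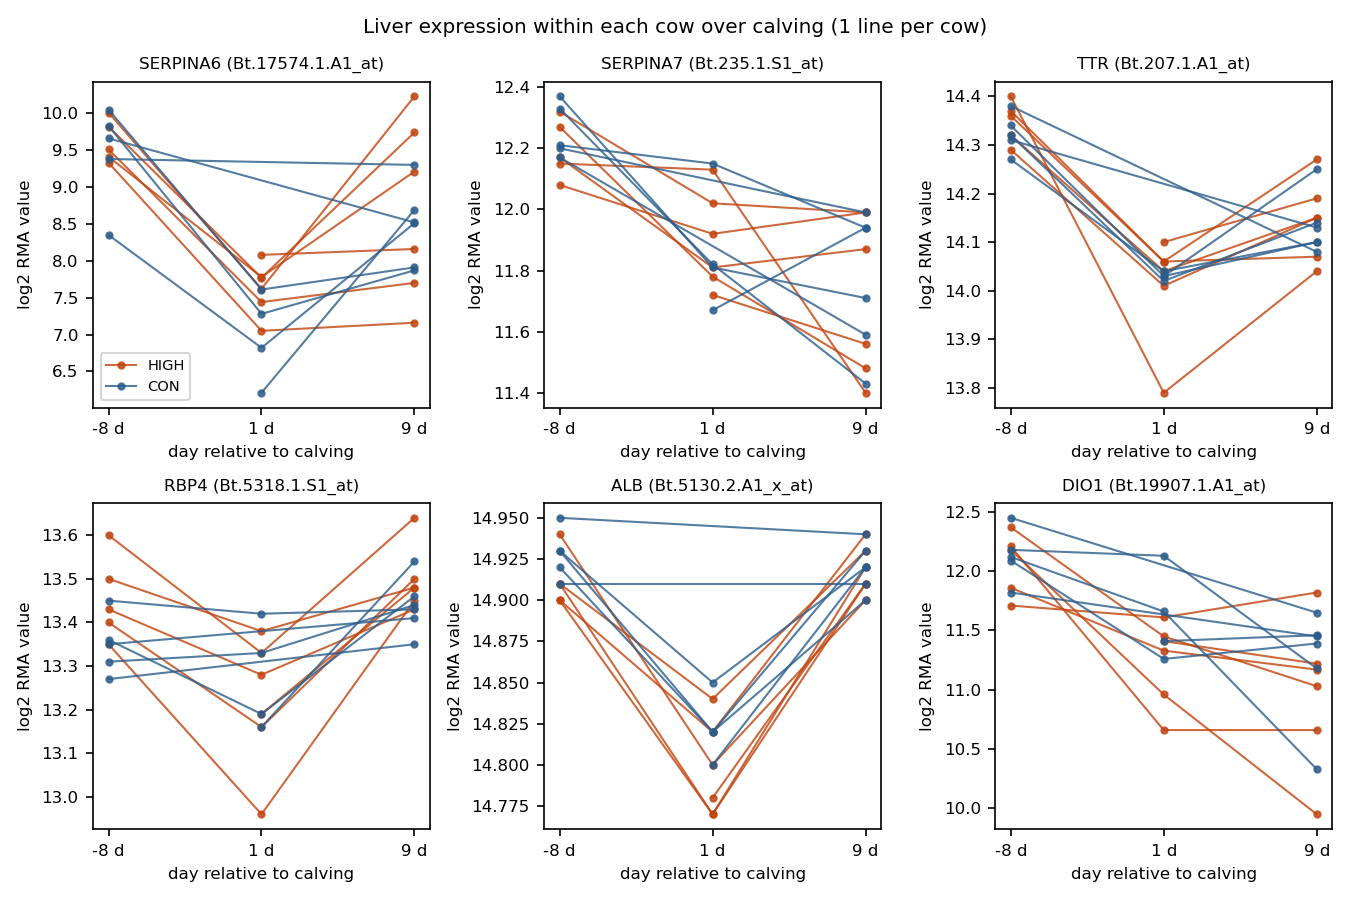
Log2 RMA values (y axis) at -8, 1 and 9 d relative to calving (x axis), with 1 line per cow coloured by diet and the same probe sets as in the plot by group. All 8 cows sampled on both days fell at 1 d in SERPINA6, SERPINA7, TTR, ALB and DIO1, and all 10 cows sampled on both days rose between 1 d and 9 d in SERPINA6, TTR, RBP4 and ALB.

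ALB was read by 9 probe sets that did not move together. The first and the second sat at the top of the measured scale, where RMA values are compressed: the first ran from 14.85 to 15 and the second from 14.77 to 14.95, and the highest value in the whole table was 15. Their suffixes (_a_at and _x_at) mark probe sets that share probes with other transcripts of the gene or may cross-hybridise. A small difference here can therefore stand for a larger one in RNA, by an amount these arrays cannot give.

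The second ALB probe set ran from 14.77 to 14.84 in HIGH cows at 1 d (median 14.79) and was 14.82, 14.85, 14.82 and 14.80 in CON cows. At -8 d it was 14.91, 14.94, 14.90, 14.91 and 14.90 in HIGH cows and 14.93, 14.93, 14.92, 14.95 and 14.91 in CON cows. No value at 1 d reached those of -8 d. The difference was -0.11 (SE 0.02, adjusted p = 0.000102), and -0.08 (SE 0.02, adjusted p = 0.00395) for the first, each lower in 8 of 8 cows. With the control difference as a covariate they were -0.11 (adjusted p = 0.0685) and -0.08 (adjusted p = 0.198).

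Both bright ALB probe sets were back by 9 d. All their values at 9 d lay above all at 1 d, for the second by 0.11 (SE 0.02, adjusted p = 0.00011) and for the first by 0.08 (SE 0.02, adjusted p = 0.00261), with a rise in 10 of 10 cows. Under the covariate the second passed (0.11, adjusted p = 0.0125) and the first did not (0.08, adjusted p = 0.0584). Nor did the first pass among the 8 cows with all 3 days, for this rise (0.07, adjusted p = 0.081) or for its fall at 1 d (-0.07, adjusted p = 0.0636). Against -8 d the differences at 9 d were -0.0003 for the second and 0.0045 for the first (95% intervals -0.04 to 0.04 and -0.03 to 0.04).

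The dimmer ALB probe sets gave a mixed picture. From the third to the ninth they averaged 10.55, 9.82, 7.21, 6.81, 5.69, 5.64 and 3.81 over all arrays. The medians of the arrays ran from 5.87 to 5.935, so the seventh, eighth and ninth averaged below them. The sixth went the other way, with values of 6.77 to 7.56 in HIGH cows at 1 d (median 7.10) and 7.13, 6.83, 6.54 and 7.21 in CON cows. At -8 d it was 6.24, 6.48, 6.78, 6.32 and 6.44 in HIGH cows and 6.85, 6.76, 6.62, 6.67 and 6.39 in CON cows. The difference was 0.48 (SE 0.10, adjusted p = 0.000398), higher in 7 of 8 cows. The eighth was lower at 1 d (-0.21, SE 0.08, adjusted p = 0.0445), a call lost with the control difference as a covariate (-0.04, adjusted p = 0.903), with no cow block (adjusted p = 0.056) or with cow as a fixed effect (adjusted p = 0.104). In this comparison the remaining 5 did not pass, with adjusted p from 0.13 to 0.629. Against -8 d at 9 d, the fourth (0.27, adjusted p = 0.00985) and the sixth (0.28, adjusted p = 0.045) were higher and the other 7 did not pass. Neither passed among the 8 cows with all 3 days (adjusted p = 0.0717 and 0.126), and the sixth did not pass with no cow block (adjusted p = 0.0898).

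The direction called for ALB at 1 d therefore depends on the probe set: lower for the first, second and eighth, higher for the sixth. A mean over the 9 probe sets gave -0.0008 for 1 d against -8 d (adjusted p = 0.992) and 0.07 for 9 d against 1 d (adjusted p = 0.177). In that mean the dim probe sets weigh as much as the first and second, so it does not show that ALB was unchanged. Which transcripts the dimmer probe sets read was not tested, since no probe sequences were used here.

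Counted over the probe sets, 10 of 15 passed at 1 d against -8 d, 9 lower and 1 higher, where 23.0% of all probe sets passed (11.6% lower and 11.5% higher). In the comparison of 9 d with -8 d 7 of 15 passed, 5 lower and 2 higher, against 9.44% of all probe sets (4.25% lower and 5.18% higher). Between 9 d and 1 d 5 of 15 passed, all higher, against 13.1% of all (6.11% higher and 6.99% lower). The median log2 difference of the 15 was -0.11, -0.0092 and 0.08 in these comparisons, and that of all probe sets -0.02, -0.02 and 0.001. ALB holds 9 of the 15, so the probe sets are not independent counts of genes. Among the 12562 probe sets left by a filter on dim probe sets, which kept 12 members, 39%, 20.5% and 25.6% passed. The members were chosen with earlier results of these data known. Their counts beside these shares are therefore a description and not a test of the 6 genes as a set.

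The count at 1 d depended on the quality covariate, under which 3 of 15 passed: SERPINA6, TTR and the sixth of ALB. Under that covariate 4.73% of all probe sets passed. Between 9 d and 1 d RBP4 and the second of ALB passed under it, 2 of 15, against 6.65% of all probe sets.

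In terms of cows, SERPINA6, SERPINA7, TTR, both bright ALB probe sets and the brighter probe set of DIO1 were lower at 1 d in 8 of 8 cows, as were 4.98% of all probe sets. SERPINA7, TTR and the dimmer probe set of DIO1 fell below their -8 d value by 9 d in 10 of 10 cows, as did 2.01% of all. From 1 d on, SERPINA6, TTR, RBP4 and both bright ALB probe sets gained in 10 of 10 cows by 9 d, as did 2.33% of all. The groups of days did not overlap at 1 d against -8 d for SERPINA6, TTR and both bright ALB probe sets (0.520% of all probe sets, lower). For 9 d against -8 d this held for SERPINA7 (0.146% of all, lower), and at 9 d against 1 d for the bright ALB probe sets (0.233% of all, higher).

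**Figure D3:**
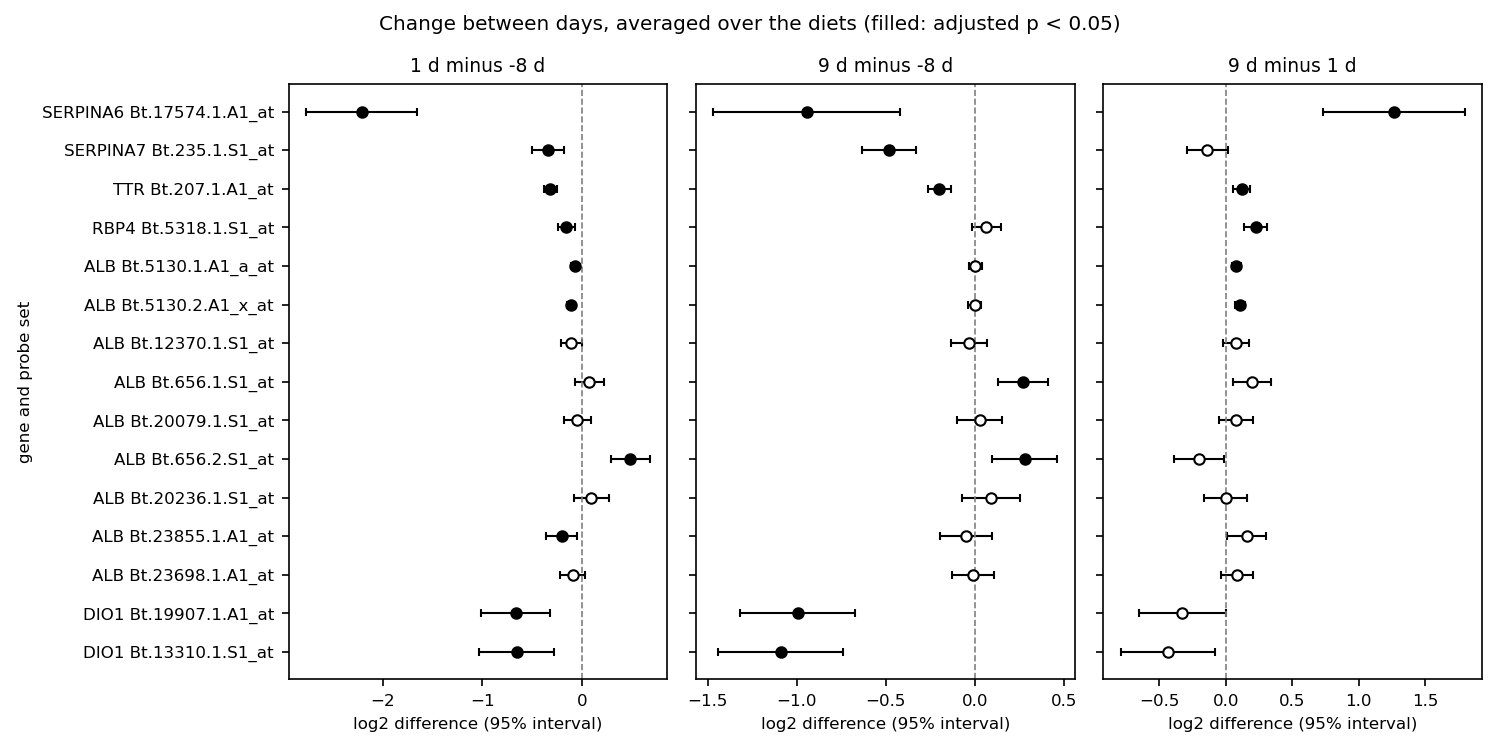
Log2 difference between days averaged over the diets (x axis, scale differs between panels) for the 15 probe sets (y axis), with 95% intervals; filled points have adjusted p under 0.05. SERPINA6 is far below 0 at 1 d, the DIO1 probe sets are lowest at 9 d against -8 d, and the right panel shows SERPINA6, TTR, RBP4 and the bright ALB probe sets above 0.

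Within each diet the main movements had the same direction. At 1 d against -8 d SERPINA6 was at -1.99 in HIGH cows (adjusted p = 0.000255) and -2.43 in CON cows (adjusted p = 0.00049). TTR was at -0.34 and -0.30 (adjusted p = 3.83e-06 in HIGH and 0.000497 in CON). RBP4 was at -0.24 in HIGH cows (adjusted p = 0.0037) and -0.08 in CON cows (adjusted p = 0.543), and the difference between these, -0.16 (SE 0.09), did not pass the test (adjusted p = 0.739). In total 10 of 15 probe sets passed in HIGH cows, against 16.6% of all, and 4 of 15 in CON cows, against 6.34% of all. Under the covariate 3 of 15 passed in HIGH cows and 0 of 15 in CON cows, against 7.82% and 0.154% of all. SERPINA6 was then at -1.45 in HIGH cows (adjusted p = 0.062) and -1.72 in CON cows (adjusted p = 0.227). TTR passed in HIGH cows (-0.33, adjusted p = 0.00104) and not in CON cows (-0.29, adjusted p = 0.10), and RBP4 in HIGH cows did not pass (-0.23, adjusted p = 0.0692).

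Also within diets, SERPINA7 at 9 d relative to -8 d was at -0.47 in HIGH cows (adjusted p = 0.00827) and -0.49 in CON cows (adjusted p = 0.0123), and the brighter DIO1 probe set at -1.10 (adjusted p = 0.00462) and -0.89 (adjusted p = 0.0355). SERPINA6 did not pass in either diet alone, at -0.91 in HIGH cows (adjusted p = 0.176) and -0.97 in CON cows (adjusted p = 0.203). There 6 of 15 passed in HIGH cows (3.56% of all) and 4 of 15 in CON cows (1.84% of all). Under the covariate SERPINA7 did not pass in HIGH cows (-0.39, adjusted p = 0.0594) and passed in CON cows (-0.44, adjusted p = 0.033), while the brighter DIO1 probe set passed in HIGH cows (-1.03, adjusted p = 0.0274) and not in CON cows (-0.84, adjusted p = 0.0778). The CON call of DIO1 was also lost with no cow block (adjusted p = 0.0714) and among the cows with all 3 days (adjusted p = 0.11). Leaving out 1 array left 0 to 4 of the 15 in CON cows. Between 9 d and 1 d 5 passed in HIGH cows (9.14% of all) and 1, SERPINA6, in CON cows (2.76% of all). Of these 3 and 0 passed with the covariate, where 8.81% and 0.924% of all did.

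No member passed the test for diet on any day. By limma, HIGH minus CON passed for 0 of 15 on each of the 3 days, with 0 of 15 also at an unadjusted p under 0.05 on each day. Of all probe sets 0%, 0.00416% and 0% passed. At an unadjusted p under 0.05 there were 1025 at -8 d, 2013 at 1 d and 813 at 9 d, of all 24016 probe sets. SERPINA6 averaged 7.62 ± 0.35 in HIGH cows (SD, n = 6) and 6.98 ± 0.61 in CON cows (SD, n = 4) at 1 d. That difference, 0.61, had a 95% interval of -0.23 to 1.46, so a difference of either a small fall or more than a doubling lies inside it.

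Other genes had narrower intervals. DIO1 (the brighter probe set) was at -0.06 (-0.57 to 0.46) at -8 d, -0.40 (-0.92 to 0.13) at 1 d and -0.27 (-0.74 to 0.20) at 9 d, for HIGH minus CON. For TTR the intervals were -0.08 to 0.13, -0.12 to 0.08 and -0.08 to 0.10 on the 3 days in order, and for SERPINA7 -0.30 to 0.17, -0.21 to 0.28 and -0.27 to 0.17. The largest estimate for RBP4, 0.11 at -8 d, had an interval of -0.02 to 0.24.

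Diet by time was tested as the change in HIGH cows minus the change in CON cows, and 0 of 15 passed for 1 d or for 9 d against -8 d, as did 0% of all probe sets. At an unadjusted p under 0.05 there were 3 of 15 at 1 d and 1 of 15 at 9 d, all of ALB. Of all 24016 probe sets 1723 at 1 d and 789 at 9 d had such a p. The ALB values at 1 d were 0.34 for the fourth (adjusted p = 0.659) and 0.45 for the sixth (adjusted p = 0.669). The eighth of ALB went the other way. Its mean went from 5.81 at -8 d to 5.44 at 1 d in HIGH cows, and from 5.648 to 5.595 in CON cows. For SERPINA6 the diet by time value at 1 d was 0.44 (SE 0.55, adjusted p = 0.909).

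**Figure D4:**
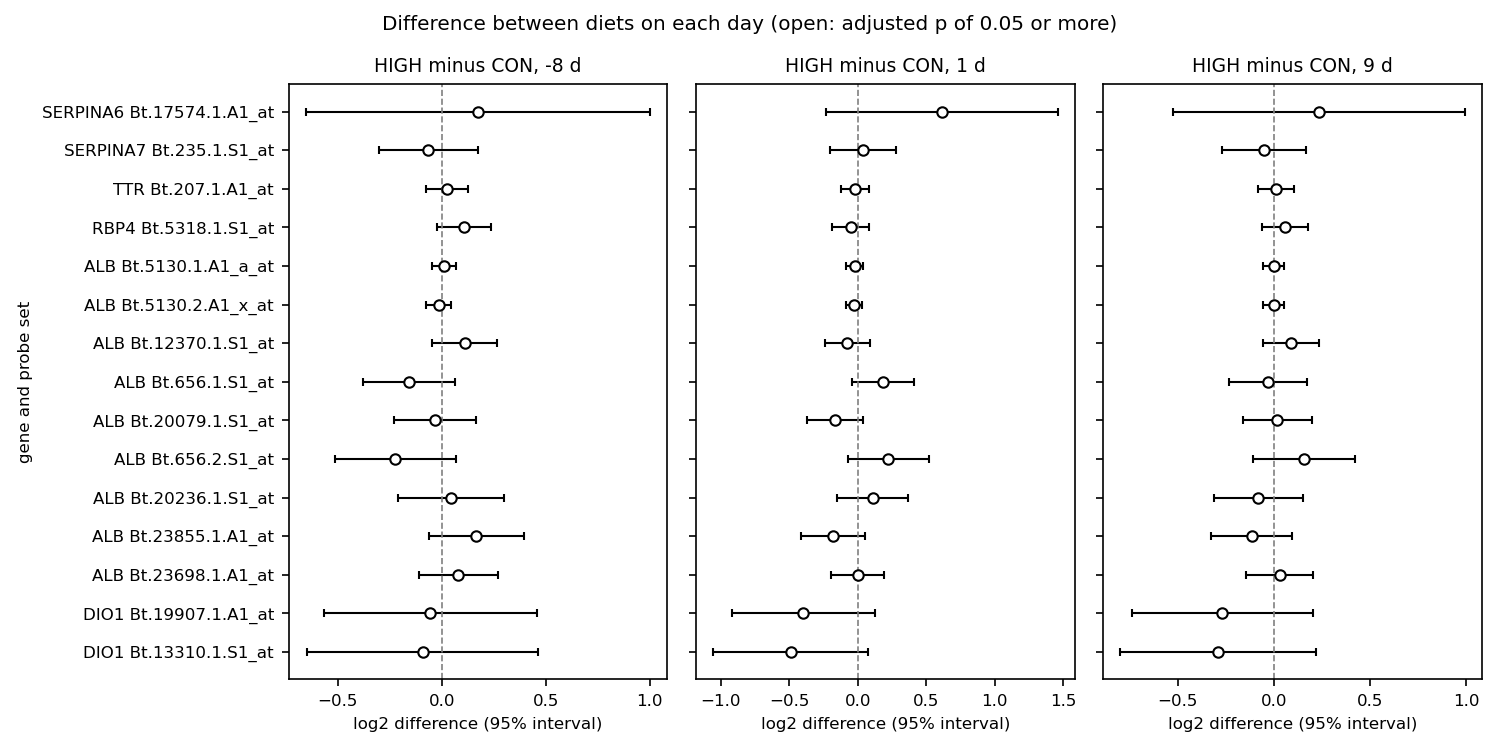
HIGH minus CON on each day as a log2 difference (x axis, scale differs between panels) for the 15 probe sets (y axis), with 95% intervals; open points have adjusted p of 0.05 or more. Every interval includes 0 and every point is open.

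The spread of arrays around the group means was largest for SERPINA6, with a residual SD of 0.70, followed by DIO1 (0.42 and 0.46). It pools repeated arrays of the same cows, so it mixes spread between cows with spread within them. For SERPINA6 the SD was highest in HIGH cows at 9 d (1.21, n = 6). The residual SD was 0.19 for SERPINA7, 0.10 for RBP4, 0.07 for TTR and 0.02 for the bright ALB probe sets. The values of these ALB probe sets are compressed, and those of TTR and RBP4 may be. With the group means taken out, SERPINA6 correlated with SERPINA7 at r = 0.62, with DIO1 at r = 0.61 for either probe set, with TTR at r = 0.47 and with RBP4 at r = 0.20 over the 32 arrays, which share cows.

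At 9 d the same 3 of the 12 cows gave the lowest values of SERPINA6, SERPINA7 and both DIO1 probe sets, a pattern picked out after the values were seen. These were HIGH cows 439 and 462 and CON cow 483. Cow 439 had 7.16 for SERPINA6, 11.48 for SERPINA7 and 10.66 for DIO1 (the brighter probe set). Cow 462 had 7.70, 11.40 and 9.95 for these, and cow 483 had 7.87, 11.43 and 10.33. At the other end, HIGH cow 432 had the highest SERPINA6 (10.23), DIO1 (11.82), TTR (14.27) and RBP4 (13.64) of the 12 and shared the highest SERPINA7 (11.99) with HIGH cow 529 and CON cow 527.

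Before calving cows 439, 462 and 483 were not the lowest of the 10 in SERPINA6, SERPINA7 or the brighter DIO1 probe set. At -8 d cow 439 had 9.33 for SERPINA6, the second lowest, 12.27 for SERPINA7 and 12.21 for DIO1 (the brighter probe set). Cow 462 had 9.51, 12.15 (the second lowest SERPINA7) and 12.18 for these, and cow 483 had 9.83, 12.33 and 12.12 for SERPINA6, SERPINA7 and DIO1. Cow 432 then had the lowest DIO1 by the brighter probe set (11.71) and the lowest SERPINA7 (12.08) of the 10 cows. By the dimmer probe set its DIO1 was 10.11, above the lowest value of 9.85 in a CON cow.

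**Figure D5:**
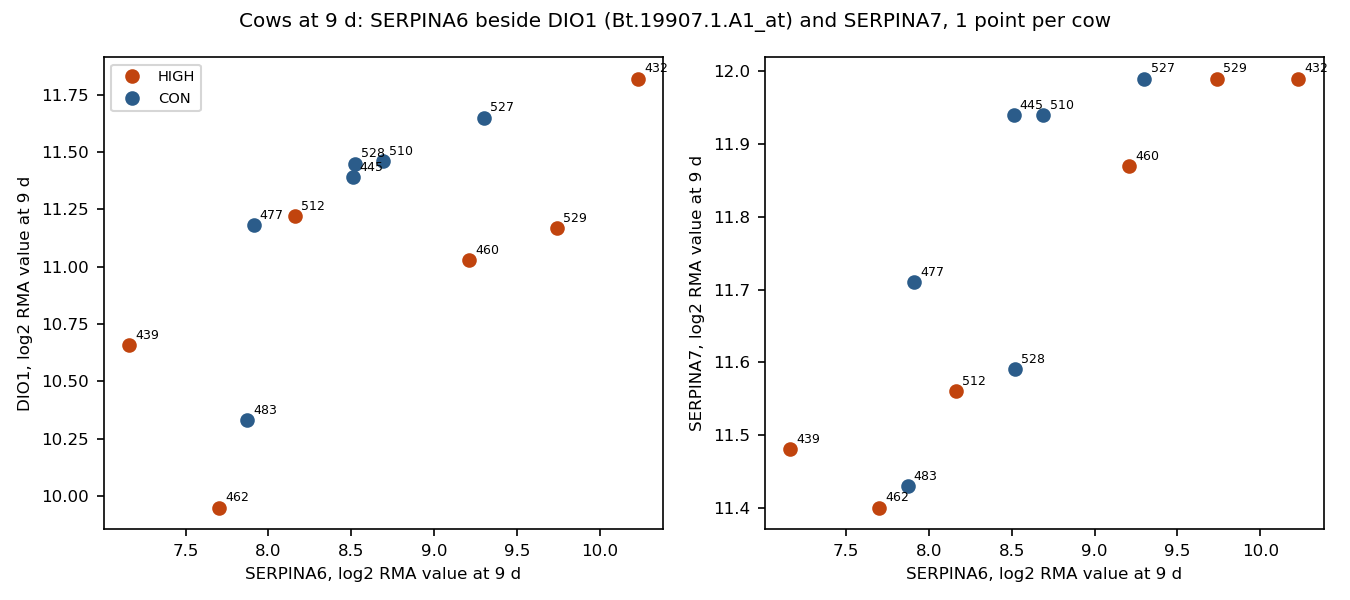
Each point is 1 cow at 9 d, with SERPINA6 on the x axis and DIO1 (left) or SERPINA7 (right) on the y axes, all as log2 RMA values. Cows 439, 462 and 483 lie at the low end of all 3 genes and cow 432 at the high end.

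The genes whose log2 values ran most like these over the 32 arrays were looked up among 9154 other genes, as a description. The SERPINA6 pattern was nearest to PYROXD2 (r = 0.86), MACROD1 (0.85) and OTC (ornithine transcarbamylase of the urea cycle; 0.84) and most opposed to SSR3 (-0.86), CGREF1 (-0.85) and P4HB (a protein disulfide isomerase; -0.85). TTR was nearest to NFYB (0.87), PKLR (liver pyruvate kinase; 0.86) and PYROXD2 (0.85) and most opposed to P4HB, UQCRB and PLPP5 (each -0.89).

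For the brightest ALB probe set the nearest were HACL1 (peroxisomal alpha-oxidation; 0.91), MGC137014 and MGC137211 (each 0.86). The most opposed were RPN2 (-0.92), SEC11C (-0.90) and STT3B (-0.89), which act on proteins entering the endoplasmic reticulum. RBP4 ran with VNN1 (pantetheinase; 0.83), NIPSNAP1 (0.82) and ACAA1 (a peroxisomal thiolase; 0.79), and against UBFD1 (-0.86), IFTAP and MARS1 (each -0.82).

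The gene nearest to DIO1 was SERPINA7 itself (0.75), followed by CGN1 (conglutinin; 0.75) and ZFAND3 (0.71), with LMNA (lamin A and C; -0.83), PHB1 (-0.78) and IDH2 (-0.72) most opposed. The genes nearest to SERPINA7 were PROC (protein C; 0.82), FGFR2 (0.81) and QSOX1 (0.80), and the most opposed were HPRT1 (-0.86), TK1 (-0.81) and C16H1orf21 (-0.80). All arrays shared the 3 days and the 12 cows, which these coefficients include.

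Genes acting up- or downstream of the carriers were read from lists, each gene by its brightest probe set. Of all 9155 genes read in this way, 28.8% passed at 1 d against -8 d (16.5% higher and 12.3% lower), 12.9% at 9 d against -8 d (7.79% higher and 5.08% lower) and 17.5% at 9 d against 1 d. Under the covariate, a check of the lists chosen after seeing the data, these were 6.85%, 7.53% and 9.46%. A list count near these shares does not set the list apart.

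Of 10 measured genes of thyroid hormone action 1 was higher and 1 lower at 1 d against -8 d. SLC7A5, an amino acid transporter that also takes up thyroid hormones, was at 0.39 (adjusted p = 0.00627). THRSP, a lipogenic gene that thyroid hormone induces in rodents, was at -1.45 (adjusted p = 0.0216). The list's median was -0.04, against 0.0004 over all genes. At 9 d against -8 d 0 of 10 passed, and between 9 d and 1 d THRSP alone was higher (1.31, adjusted p = 0.0434). None of these 3 calls passed with the covariate (adjusted p = 0.447, 0.209 and 0.144).

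Of 11 genes of glucocorticoid action 1 was higher and 2 lower at 1 d, with a median of -0.01. HSD11B1, the enzyme that regenerates active glucocorticoid inside hepatocytes, was at -0.53 (SE 0.06, adjusted p = 4.68e-08) and then 0.59 higher at 9 d than at 1 d (adjusted p = 5.18e-09). SERPINA6 also fell at 1 d and rose by 9 d, but the 2 genes differed in their calls at 9 d against -8 d. There HSD11B1 was at 0.06 (adjusted p = 0.524), while SERPINA6 was called lower. That SERPINA6 call, like its rise by 9 d, was lost with the covariate. Neither a contrast nor a link between the 2 genes was tested. The metallothionein MT2A was at 1.84 and the phosphatase DUSP1 at -1.08 (adjusted p = 2.43e-05 and 0.00338). By 9 d, against -8 d, MT2A (0.85) was higher and DUSP1 (-0.82) lower. With the covariate HSD11B1 passed in both comparisons (-0.39, adjusted p = 0.0131, and 0.49, adjusted p = 5.86e-05), and MT2A and DUSP1 in none.

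Of 19 genes of vitamin A handling 3 were higher and 5 lower at 1 d, with a median of -0.0002. The lipoprotein receptor SCARB1 (0.46) and the retinol-esterifying LRAT (0.25) were higher, and the retinoid-responsive RARRES1 (-0.66) and the retinaldehyde dehydrogenase ALDH1A1 (-0.23) lower. For 9 d against -8 d SCARB1 (0.31) and RARRES1 (-0.45) passed. Between 9 d and 1 d ALDH1A1 (0.26) and the alcohol dehydrogenase ADH4 (0.30) were higher, and DHRS3 (-0.45), which reduces retinaldehyde, and LRAT (-0.23) lower. With the covariate 2 of the 8 calls at 1 d passed, ALDH1A1 (-0.31, adjusted p = 0.0384) and RDH10, a retinol dehydrogenase (-0.55, adjusted p = 0.0448). SCARB1 at 9 d against -8 d and ALDH1A1 at 9 d against 1 d also passed, and the other calls named here did not.

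Other plasma carriers went both ways, with 3 of 17 higher and 6 lower at 1 d and a median of -0.04. AMBP, the precursor of alpha-1-microglobulin, was at -0.19, clusterin (CLU) at -0.48 and the IGF carrier IGFBP3 at -0.58, while the copper protein CP was at 0.23. IGFBP3 (-0.85) and CLU (-0.34) were also lower at 9 d than at -8 d, where 1 of 17 was higher and 3 lower. With the covariate 4 of the 9 calls at 1 d passed, among them AMBP, CLU and CP but not IGFBP3 (-0.29, adjusted p = 0.484), and all 4 at 9 d against -8 d.

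Of 15 other serpins 3 were higher and 1 lower at 1 d, with a median of 0.02. SERPIND1 (heparin cofactor II) was at -0.55 and 0.46 higher at 9 d than at 1 d, and SERPINF2 (alpha-2-antiplasmin), for which another probe set passed in the opposite direction, was at 0.44. SERPINA11 was at 0.31 and SERPINA14 at 1.20. Of these, SERPINA11 at 1 d did not pass with the covariate (0.21, adjusted p = 0.175).

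DIO1 is a selenoprotein, and of 16 other selenoproteins 5 were higher and 1 lower at 1 d, with a median of 0.13. The secreted glutathione peroxidase GPX3 was at 4.64 and GPX4 at 0.68 (adjusted p = 1.05e-13 and 1.8e-07), followed by SEPHS2 (0.26) and SELENOF (0.28). At 9 d against -8 d 3 were higher and 1 lower, among them GPX3 (1.165, adjusted p = 0.00131), GPX4 (0.61) and GPX1 (-0.23). Between 9 d and 1 d GPX3 was at -3.47 (adjusted p = 3.82e-11). These 2 GPX3 calls also passed with the covariate (1.15, adjusted p = 0.00779, and -3.44, adjusted p = 4.09e-07). Of 5 measured factors for selenoprotein synthesis 2 were higher and 1 lower at 1 d, with SEPHS1 at 0.43, TRNAU1AP at 0.24 and EEFSEC at -0.14. With the covariate GPX3 (4.60), GPX4, SEPHS2, SELENOF and SEPHS1 passed at 1 d, and TRNAU1AP, EEFSEC at 1 d and GPX1 at 9 d did not.

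Of 10 liver-enriched transcription factors 4 were higher and 3 lower at 1 d, with a median of 0.23. CEBPG (0.60) and CEBPB (0.44) were higher and the basic leucine zipper factors HLF (-0.56) and NFIL3 (-0.58) lower. HLF was also the only one that passed at 9 d against -8 d (-0.49, adjusted p = 5.17e-05). With the covariate 3 of the 7 calls at 1 d passed, CEBPG and the hepatocyte factors HNF4A (0.88) and FOXA3 (1.63), but not CEBPB, HLF or NFIL3, and HLF passed at 9 d against -8 d (-0.41, adjusted p = 0.00119).

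The medians of these 8 lists lay between -0.07 and 0.04 at 9 d against -8 d and between -0.10 and 0.09 at 9 d against 1 d. Of the 165 genes in these lists and in the cell type marker lists, 0 passed for diet on any day or for diet by time.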

How the data were processed

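Total RNA of 32 liver biopsies was labelled with biotin and hybridised to Affymetrix bovine arrays. Per the submitters' processing notes, the deposited log2 values come from Affymetrix Expression Console 1.1 with RMA. This method quantile normalises arrays and compresses the brightest and dimmest signals. The values run from 2.35 to 15. The table holds 24128 probe sets, and without its 112 controls 24016 were tested, with no filter on level. Of these 13292 carry 1 gene symbol, 86 several and 10638 none here. The number of arrays limits the precision.

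Groups came from the labels' diet and day. Cow numbers in the labels, not replicate numbers in the titles, paired the arrays. The test was limma 3.58.1 in R 4.3.3: 6 group means, cow as a random block (consensus correlation 0.138), empirical Bayes with a trend, 26 residual degrees of freedom, two-sided. Benjamini-Hochberg adjustment ran over all 24016 probe sets per contrast, with adjusted p under 0.05 as threshold. The fit was tested on simulated data.

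All probe sets of the 6 genes were named, up to 4 passing genes with the smallest p per list, and the 3 nearest and most opposed genes per member. Genes outside the 6 are read by the probe set with the highest mean. The lists were also counted with the quality covariate, an alternative chosen after seeing the data. The members and lists were chosen with earlier results of these data known. The labels used here give no scan date or other batch, so batch was not tested. Alternatives were the block, the cows used, the trend, robust fits, array weights, a filter, centring, a quality covariate, averaged probe sets and leaving out each array. No genome positions or sequences were used.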

Additional observations from a re-analysis of the deposited data

Results flagged for a closer look

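Of 90 groups of 4 to 6 arrays, 9 had 1 array far from the rest by Dixon's criterion, which chance gives in about 1 of 20 groups. For TTR cow 439 was low in HIGH cows at 1 d (13.79, next 14.01) and cow 510 high in CON cows at 9 d (14.25, next 14.14). RBP4 in cow 432 was high in HIGH cows at 9 d (13.64, next 13.50). For the bright ALB probe sets cow 462 was high in HIGH cows at 9 d (the first, 15, next 14.96) and cow 439 in HIGH cows at -8 d (the second, 14.94, next 14.91). Among the dimmer ALB probe sets cow 510 was high in CON cows at 9 d (the fifth, 7.52, next 7.21) and cow 512 in HIGH cows at 1 d (the eighth, 5.63, next 5.45). DIO1 in cow 483 was low in CON cows at 9 d by both probe sets (the brighter, 10.33, next 11.18, and the dimmer, 8.65, next 9.48).

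ALB read by the fourth of its probe sets gained over calving in 5 of 5 HIGH cows (1 d above -8 d) and dropped in 3 of 3 CON cows, with a mean difference over the 8 cows of 0.113. The diet by time test of this difference gave 0.34 (SE 0.15, adjusted p = 0.659), which did not pass. How many of all probe sets split the 8 cows in this way was not counted.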

How the results depend on the processing

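The counts of the 15 probe sets past the threshold were recomputed under each alternative. For 1 d against -8 d, 9 d against -8 d and 9 d against 1 d, leaving out each array in turn gave 9 to 10, 6 to 7 and 5 to 6 averaged over the diets, 9 to 11, 4 to 6 and 3 to 5 in HIGH cows, and 2 to 4, 0 to 4 and 0 to 2 in CON cows, with the cow correlation of the full fit. For diet and diet by time it gave 0 to 0. With no replicate block 9 d against 1 d in HIGH cows counted 3, 9 d against -8 d in CON cows 2 and 9 d against 1 d in CON cows 0. With cow as a fixed effect (the replicate block, paired by cow) the first of these was 3, 1 d against -8 d in CON cows 2 and 9 d against 1 d in CON cows 0. Only the cows with all 3 days gave 4 for 9 d against -8 d and 3 for 9 d against 1 d averaged over the diets, 2 for 9 d against 1 d in HIGH cows, and 2, 1 and 0 in CON cows. Without a trend 9 d against 1 d in HIGH cows was 3. Robust fits gave 0 for 9 d against 1 d in CON cows, array weights 3 in HIGH cows and 0 in CON cows. A filter on dim probe sets (12 members left) gave 3 and centring 2 in CON cows. With the quality covariate 1 d against -8 d counted 3 averaged, 3 in HIGH cows and 0 in CON cows, 9 d against -8 d 2 in CON cows, and 9 d against 1 d 2 averaged, 3 in HIGH cows and 0 in CON cows. The shares of all probe sets were, in the same order, 4.73%, 7.82%, 0.154%, 0.912%, 6.65%, 8.81% and 0.924%. The averaged ALB value for 1 d against -8 d within HIGH cows was 0.003 (adjusted p = 0.975), turned from -0.09. Of 6720 single values with 1 array left out, 6576 kept direction and side of the threshold, 120 lost the threshold and 24 gained it.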
